A study of Mus musculus with 4 samples.

Results

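Type I interferon response genes were examined in splenic mouse B cells that carried 1 or no intact allele of Aff3, by their labelled genotypes. The 33 genes were taken from a fixed list that was chosen with earlier results of these data known. A gene's probes were all non-control probes whose accession is a RefSeq transcript of that gene. By this rule 31 of the 33 genes had a probe (40 of the 39429 probes), and all 31 were tested among 20637 features. Where several probes of a gene passed the filter on dim probes, the brightest by mean signal stood for it in the main counts and medians. Mx1 and Mx2 matched no probe by transcript accession, so the Mx subfamily was not analysed here. Aff3 belongs to the AF4/FMR2 genes, which encode nuclear proteins found in transcription elongation complexes. B cells were prepared from spleen by removing cells with CD43 on their surface, from Aff3+/- mice (2 samples) and Aff3-/- mice (2 samples). Both genotypes were cultured for 3 days with LPS at 10 ug/mL and IL-4 at 10 ng/mL. The controls were heterozygous and stimulated like the Aff3-/- cells, so neither wild-type nor unstimulated cells were compared. Strain, age, sex and the nature of the Aff3 alleles were not given in the sources used here.

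Type I interferons are secreted proteins, interferon beta and the interferon alphas, that bind a shared receptor of the Ifnar1 and Ifnar2 chains. The receptor's kinases Jak1 and Tyk2 phosphorylate STAT proteins, among them Stat2, which join Irf9 in the complex ISGF3, and this complex binds the interferon-stimulated response element (ISRE) in the promoters of antiviral genes. LPS engages Tlr4, which through the adaptors Ticam2 and Ticam1 activates Irf3 and can induce interferon beta, so that LPS-treated cells can turn on interferon response genes without a virus. Irf7, itself an interferon response gene, carries the response forward by inducing the interferon alphas, and Usp18 restrains it at the receptor.

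The shared promoter element is shown first, because it is the sequence through which ISGF3 is known to act and the gene list was not built from it. RefSeq promoter windows of GRCm38.p6, from 250 bases before to 50 bases after a transcript start, were found for 24 of the 33 genes. The ISRE core was searched on both strands as GAAA, any 2 bases and GAAA again, where overlapping matches were counted separately. It occurred in 14 of these 24 genes (58.3%), against 3.99% of 27025 genes with such a window. Counted by window, the shares were 51.7% of 29 and 3.44% of 32851. The gamma-activated site (GAS), a STAT dimer element searched as TTCNNNGAA, which reads the same on both strands, occurred in 5 of the 24 genes (20.8%), against 9.55% of all genes. A GAS match overlapped an ISRE match in the windows of Bst2 and Ifitm3. The stretches below are those of the modifier Isg15, of Ifit and Oas genes, of a guanylate-binding protein and of other effectors, with the ISRE core matches in capitals. For Irf1 the capitals mark a GAS match, since no ISRE core match was found in its windows. Each stretch reads 5′ to 3′ on the gene's strand and ends before the transcript start.
Isg15: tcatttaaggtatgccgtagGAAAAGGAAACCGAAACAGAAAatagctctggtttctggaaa
Ifit1: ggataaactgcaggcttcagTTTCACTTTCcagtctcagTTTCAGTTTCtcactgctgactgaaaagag
Ifit3: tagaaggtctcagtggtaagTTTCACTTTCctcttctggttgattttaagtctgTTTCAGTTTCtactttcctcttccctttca
Oas1a: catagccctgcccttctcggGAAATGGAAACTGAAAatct
Oas3: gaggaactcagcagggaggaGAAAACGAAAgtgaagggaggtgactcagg
Gbp2: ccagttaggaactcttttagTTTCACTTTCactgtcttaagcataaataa
Bst2: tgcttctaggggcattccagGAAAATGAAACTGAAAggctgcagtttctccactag
Rsad2: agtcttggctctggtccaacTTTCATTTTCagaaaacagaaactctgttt
Irf1: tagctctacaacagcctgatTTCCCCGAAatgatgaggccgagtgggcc

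These stretches lie at chr4:156200855-156200916 (minus strand, Isg15), chr19:34640765-34640833 (plus, Ifit1), chr19:34583353-34583436 (plus, Ifit3) and chr5:120907526-120907565 (minus, Oas1a). The others lie at chr5:120777705-120777754 (minus, Oas3), chr3:142620584-142620633 (plus, Gbp2), chr8:71537567-71537622 (minus, Bst2), chr12:26456543-26456592 (minus, Rsad2) and chr11:53769904-53769952 (plus, Irf1). In Isg15 3 overlapping core matches ran from base -78 to base -57 before the start. Ifit1 and Ifit3 each carried 2 separate matches, at -104 and -85 and at -156 and -122. Bst2 and Oas1a each had 2 overlapping ones. Matches in Ddx58, Ifih1 and Ifitm3 began after the start, at bases 3, 33 and 3. Among the Oas genes with a window, Oasl1 and Oasl2 had no match, and among the regulators Stat2 was the only gene with one. No match says only that these letters are absent from this window. The 14 genes with a match had a median genotype difference of -0.10 (log2), the 10 without one -0.09, and the 7 genes with no window -0.06.

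**Figure D1:**
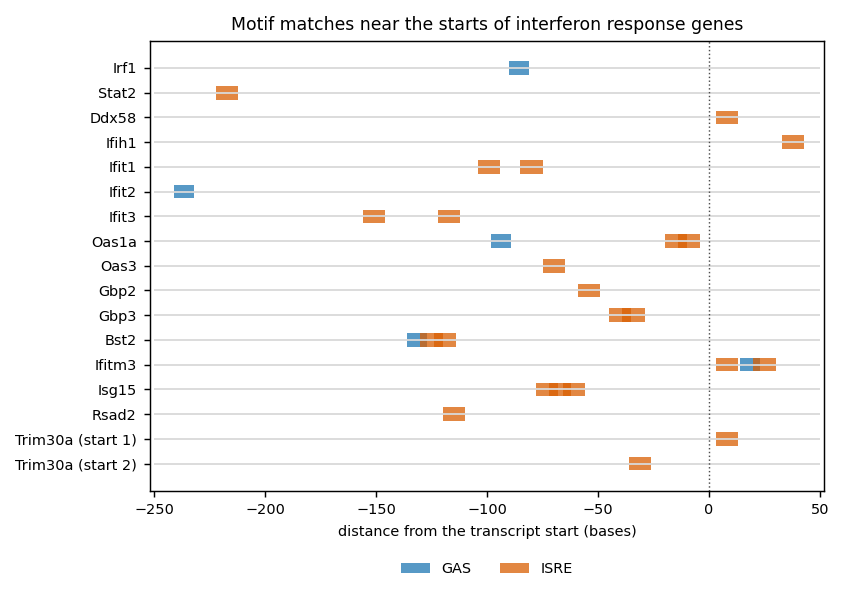
Distance of ISRE (orange) and GAS (blue) core matches from the transcript start, in bases, for each promoter window of an interferon response gene with at least 1 match; Trim30a has 2 starts. Most ISRE matches lie before the start, and those of Ddx58, Ifih1, Ifitm3 and 1 Trim30a start lie after it.

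Each Cy3-labelled RNA sample was hybridised to 1 single-colour Agilent array, and all 4 arrays shared 1 slide. Per array, 24942 to 25862 probes exceeded background clearly, and saturation touched 0 gene spots. Values below are log2 signals relative to the array's 75th percentile of gene spots, which was 1278 to 1355 intensity units, and differences are Aff3-/- minus Aff3+/-. Levels are compared only between arrays for the same probe, since brightness also depends on the probe. Nothing in the labels ties the replicates to different animals, and the p-values therefore reflect the spread among these samples alone, which may be technical. Transcripts of Aff3 were not analysed here, so the genotypes rest on the labels. The 6 B cell markers examined were well above background on every array, and their summed signal was 253 to 290 times the 75th percentile in Aff3+/- cells and 235 to 290 times in Aff3-/- cells. All 6 had a lower mean in Aff3-/- cells, from -0.25 ± 0.17 for Cd22 and -0.22 ± 0.17 for Pax5 to -0.02 ± 0.18 for Cd79b, with a median of -0.13 and overlap in each. Between arrays of the same replicate number their median was -0.08 for number 1 and -0.13 for number 2. Their part in the results below was not tested.

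No interferon response gene differed between the genotypes beyond the test's threshold, and most means were lower in Aff3-/- cells by small amounts. Of the 31 genes 28 had a lower mean (90.3% of them, against 54.5% of all features), and the median difference was -0.09, against -0.01 over all features. Between arrays of the same replicate number, the median over the genes was -0.13 for number 1 and -0.05 for number 2. Over all features it was -0.01 for each number. In 12 genes (38.7%) both Aff3-/- arrays lay below both Aff3+/- arrays, which 11.2% of all features did. In 0 genes both Aff3-/- arrays lay above, which 8.35% of all features did. The list was chosen with earlier results of these data known, so these shares are descriptions and not a test. Single differences ran from -0.43 for Ifit3 to +0.08 for Gbp2. No gene passed limma's test after Benjamini-Hochberg adjustment at 0.05 (adjusted p = 1 for each of the 31). Across the arrays 0% of the 20637 features passed it. An unadjusted p under 0.05 was reached by 0 of the 31 genes and by 420 features (2.04%). All 31 intervals (95%) of the difference included 0, with half-widths from 0.29 to 0.74 (median 0.36). The outermost bounds were -0.94 for Ifit3 and +0.67 for Ifit1, so these arrays leave room for sizeable differences in either direction for single genes. In a culture of many cells, fewer responding cells and less RNA per cell cannot be told apart.

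**Figure D2:**
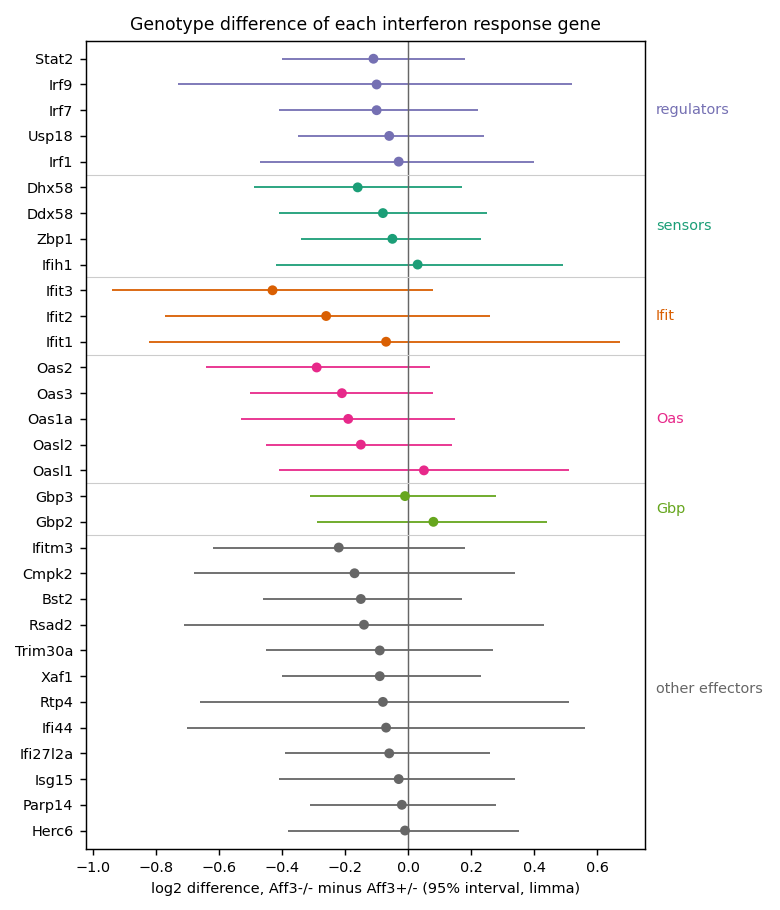
Log2 difference between Aff3-/- and Aff3+/- cells for each of the 31 genes (points) with its 95% interval from limma (lines), by subfamily. Most points lie left of 0, from -0.43 to +0.08, and every interval includes 0.

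The count depended on single arrays. Without Aff3-/- replicate 1, 20 genes were lower and 7 higher without overlap, where all features gave 39.8% and 33.2%, because a lone array meets this condition more easily. Without Aff3+/- replicate 2 and without Aff3-/- replicate 2, 20 and 22 genes were lower, beside 31.7% and 33.2% of all features. Without Aff3+/- replicate 1 the number was 14, beside 25.2% of all features. The median over the 31 genes stayed below 0 in each case. It was -0.15 without Aff3+/- replicate 2.

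The regulators are transcription factors of the response and Usp18, which restrains it. Each had a mean in Aff3-/- cells that was lower by 0.03 to 0.11. The median was -0.10, and 0 of the 5 passed the test. In 3 of the 5 (60%) the genotypes did not overlap, beside 11.2% of all features, and the median moved from -0.17 without Aff3+/- replicate 2 to -0.03 without Aff3+/- replicate 1. Stat2, the subunit of ISGF3 that activates transcription, read 3.95 and 3.90 on the Aff3+/- arrays and 3.80 and 3.82 on the Aff3-/- arrays. The arrays of each genotype lay close together, and the difference was -0.11 ± 0.11 (SE, n = 2 arrays per genotype, as for each SE below). Irf9, the DNA-binding subunit, read 3.90 and 3.44 against 3.79 and 3.35. Its replicates lay further apart (-0.46 and -0.45, replicate 2 minus replicate 1) than the genotypes (-0.10 ± 0.24). For Irf9 the genotypes overlapped, since Aff3-/- replicate 1 was above Aff3+/- replicate 2. Between arrays of the same number, the Irf9 difference was -0.11 for number 1 and -0.10 for number 2.

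Irf7, the master regulator of interferon alpha induction, read 2.00 and 1.85 in Aff3+/- cells and 1.84 and 1.82 in Aff3-/- cells. Only the first of these arrays stood apart, and the difference was -0.10 ± 0.12. Usp18, the protease that removes ISG15 and dampens the receptor, read 3.57 and 3.63 against 3.55 and 3.54 (-0.06 ± 0.11). Irf1, which responds to interferon gamma and to NF-kB as well as to type I interferon, read 3.49 and 3.18 against 3.41 and 3.21. Its genotypes overlapped fully (-0.03 ± 0.16), and both arrays numbered 2 were the lower ones. A second Irf1 probe failed the filter on dim probes.

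The sensors detect foreign or misplaced nucleic acid in the cytosol. Their median difference was -0.07, with 2 of 4 genes (50%) lower without overlap, beside 11.2% of all features. Dhx58, which encodes the RIG-I relative LGP2, read 2.64 and 2.47 against 2.43 and 2.36 (-0.16 ± 0.13), so that the lower Aff3+/- array lay just above the higher Aff3-/- array. Zbp1, the sensor of Z-form nucleic acid, read 3.00 and 3.01 against 2.95 and 2.95. That is -0.05 ± 0.11, a small difference between closely agreeing arrays, and its other probe gave -0.12. Ddx58, encoding RIG-I, differed by -0.08 ± 0.13 and its other probe by -0.16, both with overlap between the genotypes. Ifih1, encoding MDA5, was the 1 sensor with a higher mean (+0.03 ± 0.17), and its dimmer probe gave -0.08, so its probes disagreed in sign. It was the only such gene among the 8 with more than 1 tested probe.

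The Ifit genes encode proteins that bind viral RNA ends and hold back translation. They had the most negative median of the subfamilies, -0.26, but also array medians that differed most between replicates. Ifit3 read 2.33 and 1.98 in Aff3+/- cells and 1.56 and 1.89 in Aff3-/- cells. The genotypes did not overlap, Aff3-/- signal was 74.2% of that in Aff3+/- cells, and the difference was -0.43 ± 0.19 (limma unadjusted p = 0.083). Its interval ran from -0.94 to +0.08. Ifit2 read 0.50 and 0.58 against 0.04 and 0.52, so that 1 Aff3-/- array stood low and the other lay among the controls (-0.26 ± 0.19). Ifit1 read 1.33 and 1.62 against 1.04 and 1.77. Here the Aff3-/- arrays were the lowest and the highest of the 4, and the difference was -0.07 ± 0.28. In all Ifit genes Aff3-/- replicate 1 was the dimmest array. Without that array the subfamily's median was -0.02 and the difference of Ifit1 turned to +0.29, while without Aff3-/- replicate 2 the median was -0.49. Ifit3 and its close relative Ifit3b, outside the list, have similar sequences, and whether the probes tell them apart was not tested. Both Aff3-/- arrays were below the controls for Ifit3b as well (-0.47 ± 0.19).

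The Oas genes encode oligoadenylate synthetases, which on double-stranded RNA make the messenger that activates RNase L, and the related Oasl proteins. In 4 of the 5 genes both Aff3-/- arrays were below both Aff3+/- arrays (80%, beside 11.2% of all features), and the median was -0.19. Oas2 read 3.93 and 3.74 against 3.62 and 3.48, a difference of -0.29 ± 0.13 (limma unadjusted p = 0.091), or 82% of the Aff3+/- signal. Oas3 read 1.18 and 1.20 against 0.96 and 1.01. Its arrays agreed within each genotype to 0.05 or better, and the difference was -0.21 ± 0.11. Oas1a read 5.42 and 5.29 against 5.25 and 5.08 (-0.19 ± 0.13), with -0.16 for its other probe.

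Oasl2 read 3.20 and 3.14 against 2.98 and 3.05, a difference of -0.15 ± 0.11 with no overlap. Oasl1, which limits Irf7 translation, departed from the rest. It read 5.90 and 5.92 in Aff3+/- cells and 5.75 and 6.16 in Aff3-/- cells, so its Aff3-/- arrays lay on either side of the controls (+0.05 ± 0.17). The array medians of the Oas subfamily varied less between replicates than those of Ifit, with an SD within a genotype of 0.03 against 0.25. Genes that move in opposite ways cancel in such a median, and 2 Oas genes were higher and 2 lower on the arrays numbered 2 in both genotypes. Without Aff3+/- replicate 1 the median difference of the Oas genes was -0.13. The Oas1 genes are close copies of each other, and separation of Oas1a from them by these probes was not tested. Oas1g, outside the list, differed by -0.20 ± 0.12.

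The Gbp genes encode guanylate-binding GTPases that respond to interferon gamma and, more weakly, to type I interferon. Neither of the 2 measured genes separated the genotypes, and the median was +0.03. Gbp2 read 5.14 and 5.09 against 5.32 and 5.07 (+0.08 ± 0.14), where 1 Aff3-/- array was above the others. Gbp3 differed by -0.01 ± 0.11. Whether the Gbp genes differ from the Oas or Ifit genes in their response was not tested.

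The other effectors were all lower in the mean, by 0.01 to 0.22, with a median of -0.08. Both Aff3-/- arrays were below both Aff3+/- arrays in 2 of the 12 (16.7%), a share near the 11.2% of all features. Ifitm3, a membrane protein that blocks viral entry, was measured by 10 spots per array. It read 2.56 and 2.72 against 2.29 and 2.56, where the nearest arrays of the genotypes agreed to the second decimal, and differed by -0.22 ± 0.15. Bst2, encoding tetherin, which holds budding virus at the cell surface, read 5.33 and 5.27 against 5.09 and 5.22 (-0.15 ± 0.12). Rsad2, encoding viperin, read 1.89 and 1.87 against 1.45 and 2.02. Its neighbour in function, the nucleotide kinase gene Cmpk2, read 1.07 and 1.21 against 0.74 and 1.20. Both had Aff3-/- replicate 1 well below the other 3 arrays, which lay close together. Rsad2 differed by -0.14 ± 0.22 and Cmpk2 by -0.17 ± 0.19, both with overlap. The other, dimmer Cmpk2 probe read -0.42 and -0.37 against -0.94 and -0.44, a difference of -0.30 without overlap.

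Isg15, the ubiquitin-like modifier, read 6.27 and 6.35 against 6.15 and 6.41, a difference of -0.03 ± 0.14, and its other probe gave -0.07. Herc6, a ligase that attaches ISG15 in the mouse, differed by -0.01 ± 0.14. The remaining effectors Trim30a, Parp14, Rtp4, Xaf1, Ifi44 and Ifi27l2a differed by -0.09 to -0.02, each with overlap. For Ifi44 the Aff3-/- arrays, at 1.53 and 0.91, enclosed the controls at 1.37 and 1.21, which is the opposite order of Rsad2. A second Xaf1 probe gave -0.22.

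**Figure D3:**
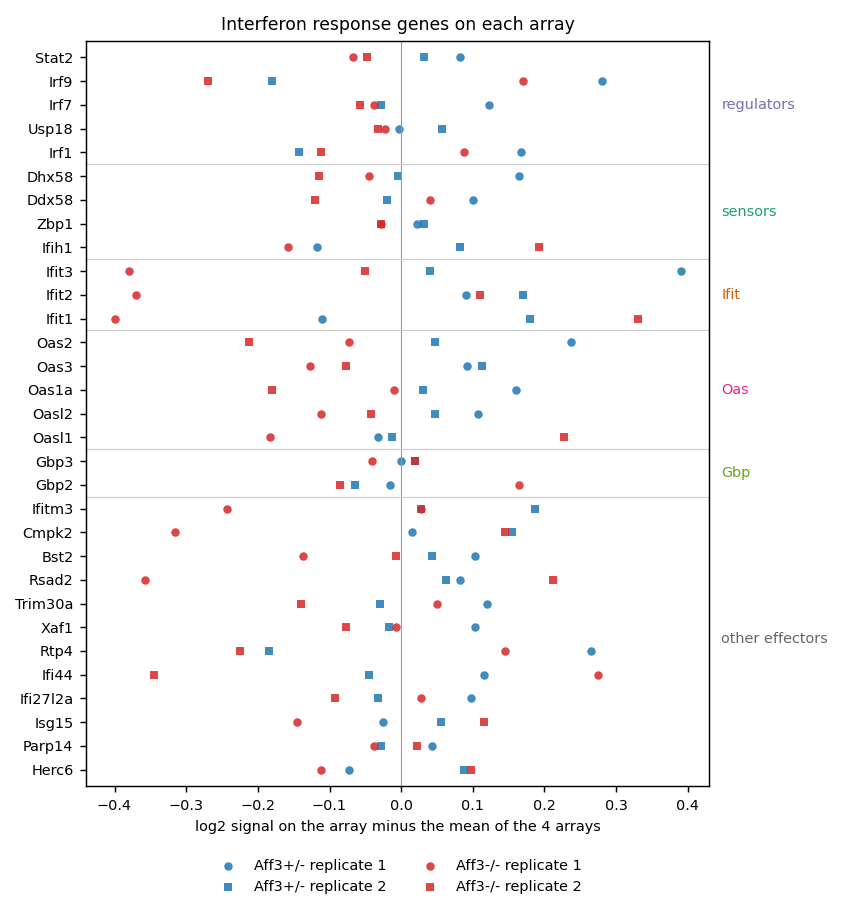
Log2 signal of each gene on each array, minus the gene's mean over the 4 arrays (blue, Aff3+/-; red, Aff3-/-; circles, replicate 1; squares, replicate 2), by subfamily. Blue points lie right of red ones for Stat2, Oas2, Oas3, Oas1a and Oasl2, while in Ifit1, Rsad2 and Oasl1 the red points lie at both ends.

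For most of the list, the 2 arrays of at least 1 genotype differed by more than the genotype means did. In 23 of the 31 genes the difference between genotypes was smaller than the larger of the 2 replicate differences, and in 8 it exceeded both. A replicate difference is between single arrays and a genotype difference between means of 2, so the measures are unlike. The share over all features was not computed, so the count is no trait of this list. Aff3-/- replicate 1 was the lowest array for 17 genes and Aff3-/- replicate 2 for 13, so that 30 of the 31 minima fell on the Aff3-/- arrays. These hold 26.9% and 34.9% of the minima over all features. The highest array was Aff3+/- replicate 1 for 16 genes, Aff3-/- replicate 2 for 7, Aff3+/- replicate 2 for 6 and Aff3-/- replicate 1 for 2.

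The genes did not all vary the same way between replicates. In 11 genes, among them Ifit1, Ifit2, Cmpk2, Isg15, Oasl1 and Ifih1, the array numbered 2 was above the array numbered 1 in both genotypes. In 13 genes, among them Irf9, Irf1, Irf7, Rtp4, Oas1a and Oas2, it was below in both, and in 7, among them Ifit3 and Rsad2, the genotypes went opposite ways. Of all 20637 features, 7424 were above in both and 8144 below in both, a split near that of these genes. Ifit1 was 0.29 and 0.73 higher on the arrays numbered 2, while Rtp4 was -0.45 and -0.37 from its partner. The labels do not say that arrays with the same number share an animal or a day.

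**Figure D4:**
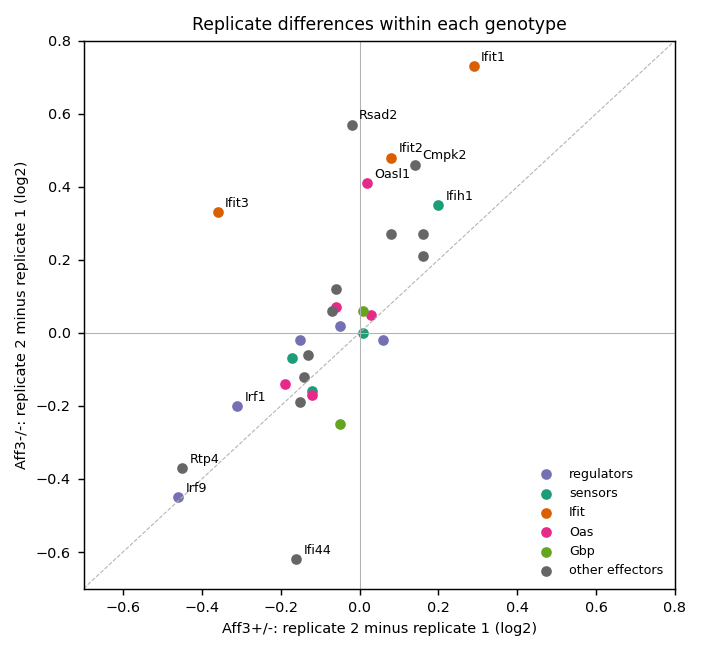
Replicate 2 minus replicate 1 (log2) for each gene in Aff3+/- cells (x axis) and in Aff3-/- cells (y axis), coloured by subfamily, with the line of equal differences dashed. Ifit1, Ifit2, Rsad2, Cmpk2 and Oasl1 lie above the line, while Irf9, Rtp4 and Irf1 lie near it below 0.

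Upstream of these genes, the interferon ligands were dim, and 9 of 14 ligand genes were tested. Ifnb1, the interferon beta gene that LPS induces first, read -7.92 and -5.67 in Aff3+/- cells and -8.89 and -5.15 in Aff3-/- cells. It was well above background only on the array numbered 2 of each genotype, and so was Ifna4 (-9.28 and -6.60 against -9.55 and -5.35). These are the arrays on which Ifit1 was brighter in each genotype, as was Cxcl10, a chemokine gene induced by interferon and chosen here after its values were seen (1.36 and 2.09 against 0.94 and 2.74). Of the 31 response genes, 11 were higher and 13 lower on the arrays numbered 2 in both genotypes. Of 52 other interferon-stimulated genes, 14 were higher and 30 lower there. The part of ligand level in the response genes was not tested. Ifna2 was brighter on both Aff3-/- arrays, at -4.68 and -4.12 against -4.90 and -4.82 (+0.46 ± 0.22), but with normexp background correction the difference was 0.02.

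The other 8 tested ligands, Ifna1, Ifna5, Ifna7, Ifna11, Ifna12, Ifna13, Ifna14 and Ifnk, ranged from -0.41 ± 0.25 for Ifna7 (-0.03 with normexp) to +0.10 ± 0.17 for Ifna11 (0.44 with normexp), all with overlap. The interferon alpha genes are close copies of each other, so a signal cannot be assigned to 1 of them here. Of the receptor chains, Ifnar1 read 1.09 and 1.11 against 1.24 and 1.15 (+0.09 ± 0.11) and Ifnar2 1.34 and 1.12 against 1.43 and 1.01 (-0.01 ± 0.19). Of the 9 receptor and JAK-STAT genes examined, 1 was lower (11.1%, beside 11.2% of all features) and 2 were higher without overlap (22.2%, beside 8.35%). Besides Ifnar1 these were Socs1 (+0.17 ± 0.12), a feedback inhibitor of JAK kinases, and Pias1 (-0.25 ± 0.11), an inhibitor of STAT signalling. In the induction pathway from Tlr4 to Irf3, the adaptor Ticam2 was +0.30 ± 0.17 and the kinase Ikbke +0.05 ± 0.11, both higher without overlap. Tlr3 was -0.25 ± 0.15, lower without overlap, and -0.03 with normexp. The other 14 of 17 genes overlapped, so that 5.88% were lower and 11.8% higher without overlap, shares near those of all features. Ifng was not well above background on any array. Of the other type II interferon genes, Ifngr2 (+0.08 ± 0.11) was the only one without overlap. With limma, 0 of these genes passed after adjustment.

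Interferon-stimulated genes outside the 33, also listed with earlier results of these data known, showed a like spread. Of 59 such genes 52 were tested, and 45 of them had a lower mean in Aff3-/- cells, with a median of -0.10. In 21 (40.4%) both Aff3-/- arrays were below both Aff3+/- arrays, beside 11.2% of all features, and in 0 both were above. The 3 of smallest unadjusted p were Ifitm1 (-3.42 and -3.69 against -3.84 and -4.18, or -0.46 ± 0.18, but -0.09 with normexp), Ifit3b (-0.47 ± 0.19) and Ifitm2 (0.75 and 0.83 against 0.28 and 0.59, or -0.36 ± 0.15). Ifitm1 and Ifitm2 lie in the same family as Ifitm3. Of the enzymes that attach ISG15, the activating enzyme gene Uba7 (-0.10 ± 0.11) and the conjugating enzyme gene Ube2l6 (-0.09 ± 0.12) were lower without overlap. No gene of these lists passed after adjustment (adjusted p = 1 for each named), and an unadjusted p under 0.05 was reached by 0 of the 94 pathway genes examined.

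**Figure D5:**
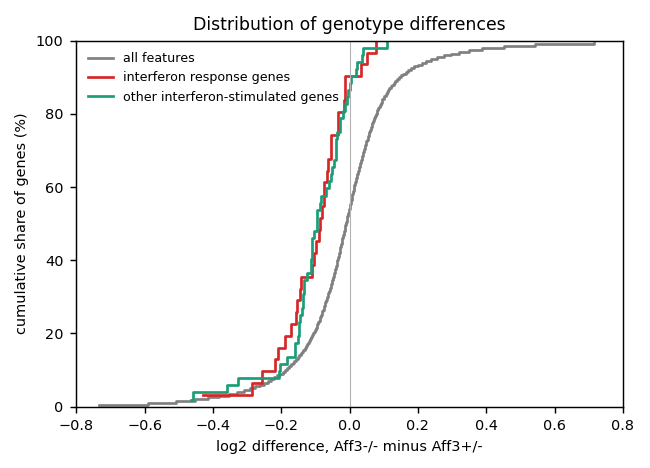
Cumulative share of genes (%) by log2 difference between Aff3-/- and Aff3+/- cells, for all 20637 features (grey), the 31 interferon response genes (red) and the 52 other interferon-stimulated genes (green). Both gene lists lie left of all features through most of their range, with medians of -0.09 and -0.10 against -0.01.

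Markers of cells that can supply interferon or respond to it are given beside these values. Of 7 plasmacytoid dendritic cell markers, 5 were well above background on all arrays, namely Siglech (-0.11 ± 0.12), Tcf4 (-0.12 ± 0.13), Ccr9 (-0.33 ± 0.24), Pacsin1 (+0.02 ± 0.14) and Cox6a2 (+0.26 ± 0.19), and Klk1 and Runx2 were not. Tcf4 is also a B cell gene. The summed signal of the plasmacytoid dendritic cell markers was 111 to 118 times the 75th percentile in Aff3+/- cells and 107 to 113 times in Aff3-/- cells. Siglech's probe gave most of that sum, at 6.45 and 6.34 against 6.29 and 6.28. Ccr9 was dim, at -6.17 and -5.75 against -6.54 and -6.04. Sums of different lists cannot be compared, since brightness also depends on the probe. Of 7 macrophage and monocyte markers, Lyz2 and C1qa were not well above background on any array, and the sum was 0.396 to 0.505 in Aff3+/- cells and 0.345 to 0.454 in Aff3-/- cells. Of 6 conventional dendritic cell markers, Itgax, Xcr1 and Clec9a were below that level throughout, with sums of 13.1 to 16.0 and 12.7 to 16.8. Zbtb46 (+0.52 ± 0.16) and Batf3 (+0.42 ± 0.15) were brighter on both Aff3-/- arrays. Flt3, whose probe had the highest signal of the 6, differed by -0.02 ± 0.21 with overlap. Ncr1, Klrb1c, Klrk1 and Klra8, 4 of 5 NK cell markers, and S100a8, S100a9 and Mpo, 3 of the 4 neutrophil markers with a probe, were not well above background either. NK sums were 0.767 to 0.878 and 0.697 to 0.873, and neutrophil sums 0.448 to 0.899 and 0.535 to 0.573. T cell markers summed to 9.18 to 9.65 and 8.58 to 9.08, with Cd3g not well above background, and plasma cell markers to 40.1 to 45.7 and 46.3 to 50.4. For T cell and plasma cell markers these ranges did not overlap between the genotypes. The sums are linear, so bright probes weigh most, those of Lck and Cd4 for T cells and of Xbp1 and Jchain for plasma cells. All 5 plasma cell markers had a higher mean in Aff3-/- cells, with a median of +0.12 and overlap in all but Jchain (+0.33 ± 0.17). Single T cell markers went both ways, from -0.11 ± 0.15 for Cd3e to +1.01 ± 0.43 for Cd8a. Cd8a and Cd8b1 (+0.50 ± 0.55) were dim and well above background on only 1 Aff3+/- array. Both passed the filter through the Aff3-/- arrays, which favours a higher value there. The part of other cells in the results was not tested.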

How the data were processed

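Agilent Feature Extraction 10.7.1.1 read the 4 arrays (file headers, submitters' processing notes). The deposited processed, median and background signals are intensity values on a linear scale, not normalized between arrays. The other deposited table has log2 values of 25372 probes, centred per probe, whose direction is that of the scanner values. It holds only probes whose value in Aff3+/- replicate 1 exceeds that in Aff3-/- replicate 1, so shares over its probes are no background. Its scaling stays unknown, and its column medians were 0.13 and -0.03 for the Aff3+/- arrays and -0.04 and 0.02 for the Aff3-/- arrays. Control and outlier spots were left out, log2 processed signals were scaled to each array's 75th percentile and spots of a probe were averaged. A probe stayed if it was well above background on both replicates of either genotype (25116 did), and the brightest such probe by mean signal stood for a gene. Symbols came from RefSeq transcript accessions of GRCm38.p6, which named 26581 probes. The array design cites another build, so its probe positions were not used. The promoter positions are those of GRCm38.p6.

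The genotypes were compared by limma 3.58.1 under R 4.3.3, using lmFit and then eBayes with no trend. Tests were two-sided, left 2 residual degrees of freedom, and were Benjamini-Hochberg adjusted over all features at 0.05. The smallest exact permutation p for 2 arrays against 2 is 0.33. In simulated data for this comparison with 20637 features, 2% of 100 genes changed by 1 (log2) and 81% of 100 changed by 2 passed, as did 0.0196% of unchanged genes.

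The members and lists were chosen with earlier results of these data known. All members are named. Some genes of the pathway and marker lists are not reported here. Array values are given for members without overlap, the regulators, the smallest p in each subfamily and further examples. From the other pathway lists, ligands, receptor chains and up to 3 genes per direction without overlap are named. Alternatives covered background correction, scaling, the filter, the authors' log2 values, probe choice, the variance model, a replicate block and leaving out each array. All arrays shared 1 slide, so no slide block was run.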

Additional observations from a re-analysis of the deposited data

How the results depend on the processing

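All 31 genes were well above background on all 4 arrays, and the number of arrays limits the precision. No feature passed the adjusted threshold with limma under any alternative. Over the alternatives run on scanner values that kept all arrays, 10 to 13 of the 31 genes were lower in Aff3-/- cells without overlap. All features gave 9.22% to 11.7%, and the median over the genes stayed between -0.10 and -0.06. The planned normexp correction of mean signals was run on median signals instead, a choice made after seeing the data. The median over all features was -0.01, but 0.0076 with normexp, 0.00065 with quantile normalization, 0.0084 with arrays centred on their median, -0.04 without the filter and -0.07 in the deposited table. The deposited table holds only probes with Aff3+/- replicate 1 above Aff3-/- replicate 1 (100% of 25372). Its shares of features (81.3% lower, 18.3% lower and 0% higher without overlap) reflect that choice of probes. Among the 29 listed genes it holds, 12 were lower without overlap. The same choice favours that count, so it is no check on the other alternatives. The cause of the other shifts was not tested.

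With normexp the sensors' median was -0.02, and signs turned for Irf1 (0.02), Ifna1 (-0.11), Ifna12 (0.15) and Ifnar2 (0.0047). Differences shrank to 0.02 for Ifna2, -0.09 for Ifitm1, -0.03 for Tlr3 and -0.03 for Ifna7, and grew to 0.44 for Ifna11. Quantile normalization turned Ifna13 (0.02). Centring on array medians turned Gbp3 (0.0053), Herc6 (0.0071), Parp14 (0.0029), Ifna13 (0.0018) and Ifnar2 (0.01). In the deposited values, which lack Gbp2, the Gbp median was Gbp3's -0.01. Averaging the probes of a gene, the sensors' median was -0.10 and Ifih1 was at -0.02.

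With 1 array left out, the lone array is assumed to vary like the others. The median over the 31 genes then ranged from -0.15 to -0.07, the number lower without overlap from 14 to 22 and the number higher from 0 to 7. Subfamily medians ranged from -0.20 to -0.13 for Oas, -0.02 to 0.08 for Gbp, -0.11 to -0.06 for sensors, -0.17 to -0.03 for regulators, -0.49 to -0.02 for Ifit and -0.14 to -0.05 for other effectors. Signs turned, with these ranges, for Ifit1 (-0.44 to 0.29), Oasl1 (-0.15 to 0.26), Gbp2 (-0.05 to 0.21), Gbp3 (-0.04 to 0.02), Ifih1 (-0.14 to 0.21), Irf1 (-0.19 to 0.12), Irf9 (-0.33 to 0.13), Isg15 (-0.17 to 0.10) and Herc6 (-0.12 to 0.09). They also turned for Rsad2 (-0.42 to 0.14), Cmpk2 (-0.40 to 0.06), Trim30a (-0.19 to 0.0046), Parp14 (-0.05 to 0.02), Rtp4 (-0.30 to 0.15), Ifi44 (-0.38 to 0.24), Ifi27l2a (-0.13 to 0.0039) and Cxcl10 (-0.79 to 1.01). Among ligands and receptor chains they turned for Ifna1 (-0.07 to 0.13), Ifna5 (-0.18 to 0.36), Ifna11 (-0.08 to 0.28), Ifna12 (-0.20 to 0.05), Ifna13 (-0.55 to 0.51), Ifna14 (-0.02 to 0.10), Ifnk (-0.10 to 0.12) and Ifnar2 (-0.22 to 0.20).

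With the replicate number as a block, 0 features passed and 1461 rather than 420 had an unadjusted p under 0.05, 1 of them among the 31 genes, while the median stayed at -0.09. Deviations of same-numbered arrays from their group means correlated at 0.557 over features and at 0.697 over the 31 genes. The main fit, with its SEs and intervals, leaves the number out. With 2 numbers and no such statement in the labels, what same-numbered samples share besides the number is not known. Without the block, 2 of the 31 genes at most had such a p, when Aff3-/- replicate 2 was left out.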
